A study of Mus musculus with 14 samples.

Results

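The genes described here are 34 that encode the protein folding machinery of the endoplasmic reticulum (ER) and the regulators of the unfolded protein response. They are a list of gene symbols grouped by function, set with earlier results of these data known. All 34 were present in both deposited tables, which list 24980 genes for dendritic cells and 17118 genes for monocytes and macrophages. They comprise 9 chaperones and their cofactors, 2 lectin chaperones, 4 protein disulfide isomerases, 7 genes of ER-associated degradation, 3 stress sensors, 5 stress transcription factors and regulators, and 4 genes of protein translocation and signal processing. Bulk RNA-seq libraries, 14 in all, came from sorted mouse bone marrow cells and, per the extraction protocol, from Cx3Cr1gfp/+ animals, in which GFP stands in 1 copy of Cx3cr1, while the series' design text speaks of wildtype mice. Dendritic cells (GFP-high, MHCII-high, CD11c-high, Gr-1- and B220-) were collected in 4 vehicle libraries and in 4 libraries after a single administration of PAM3CSK4, a lipopeptide agonist of Toll-like receptors 1 and 2. Monocytes (3 libraries; GFP-high, CD115+ and B220-, with Gr-1 low and high cells pooled) and macrophages (3 libraries; GFP-, MHCII-high, CD169+, Gr-1- and B220-) were taken at baseline. The labels give no age, sex, dose, time after dosing or number of mice.

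The ER is where secreted and membrane proteins enter the secretory route, fold, and receive their first sugars and disulfide bonds. When unfolded protein builds up there, 3 membrane sensors respond: IRE1 (Ern1) splices the mRNA of the transcription factor Xbp1, ATF6 is cut in the Golgi to free a transcription factor, and PERK (Eif2ak3) phosphorylates eIF2α, which slows translation and favours synthesis of ATF4. ATF6 and spliced XBP1 raise transcription of chaperones and degradation genes, and ATF4 raises Ddit3, Trib3 and Ppp1r15a. Cells that secrete much protein, plasma cells above all, keep this machinery high, and dendritic cells and macrophages are known to use its IRE1-XBP1 arm. The values measure the mRNA of these genes only; splicing of Xbp1, cleavage of ATF6 and phosphorylation of eIF2α were not measured.

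Much of this regulation is written in short promoter elements. Shown are the promoters of 6 members that recur below, picked because they hold such an element, which 18 members with a promoter window do not. The elements are the ER stress response element (ERSE; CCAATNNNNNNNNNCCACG on either strand), with a site for NF-Y and, 9 bases on, one for ATF6 or XBP1, and its short form ERSE-II, ATTGGNCCACG. Each stretch holds the 170 bases before the annotated start (RefSeq, GRCm38.p6), read 5′ to 3′ along the gene's own strand, with every match to ERSE, ERSE-II or the amino acid response core (TGATGNAA, a site of ATF4 dimers) in capitals. Hspa5 lies at chr2:34771920-34772089 on the plus strand, Hsp90b1 at chr10:86705445-86705614 on the minus strand, Creld2 at chr15:88819476-88819645 on the plus strand, Derl3 at chr10:75893228-75893397 on the plus strand, Calr at chr8:84846932-84847101 on the minus strand and Herpud1 at chr8:94386259-94386428 on the plus strand.
Hspa5: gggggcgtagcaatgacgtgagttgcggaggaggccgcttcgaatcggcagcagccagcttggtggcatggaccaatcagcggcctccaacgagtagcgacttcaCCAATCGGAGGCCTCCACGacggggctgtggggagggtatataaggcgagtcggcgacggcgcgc
Hsp90b1: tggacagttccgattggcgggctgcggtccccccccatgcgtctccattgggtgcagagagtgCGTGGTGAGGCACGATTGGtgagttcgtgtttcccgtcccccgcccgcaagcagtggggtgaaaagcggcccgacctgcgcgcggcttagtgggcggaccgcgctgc
Creld2: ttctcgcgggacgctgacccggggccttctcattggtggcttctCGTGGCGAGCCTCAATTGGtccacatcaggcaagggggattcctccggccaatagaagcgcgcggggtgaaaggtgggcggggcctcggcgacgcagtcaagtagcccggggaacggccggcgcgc
Derl3: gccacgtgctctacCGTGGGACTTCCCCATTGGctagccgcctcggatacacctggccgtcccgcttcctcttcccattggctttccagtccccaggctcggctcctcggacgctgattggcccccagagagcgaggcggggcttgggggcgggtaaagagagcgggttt
Calr: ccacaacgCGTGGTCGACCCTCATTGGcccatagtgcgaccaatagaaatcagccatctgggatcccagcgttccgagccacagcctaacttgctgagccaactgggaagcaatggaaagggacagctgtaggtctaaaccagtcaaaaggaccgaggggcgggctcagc
Herpud1: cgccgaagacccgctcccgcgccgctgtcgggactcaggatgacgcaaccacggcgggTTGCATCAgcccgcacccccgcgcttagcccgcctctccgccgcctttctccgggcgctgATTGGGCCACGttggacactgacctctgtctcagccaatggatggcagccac

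In Hspa5 the ERSE stands 65 to 47 bases before the start, close to the TATA box, in the sense direction. Creld2, Derl3 and Calr carry theirs on the opposite strand, beginning 126, 156 and 162 bases before the start, and Hsp90b1 has a reverse copy beginning at 107 and a further sense copy beginning at 212, outside the stretch printed. Herpud1 has an ERSE-II beginning 52 bases before the start and an amino acid response core on the opposite strand beginning at 112. Of the 34 members, 29 had a promoter window in the RefSeq table (250 bases before to 50 after the start; Derl2 has 2 windows). An ERSE was present in 9 of these 29 (31.0%: Hspa5, Hsp90b1, Dnajc3, Creld2, Calr, Canx, Pdia6, Derl3 and Syvn1), against 0.137% of all 27025 genes with a window. ERSE-II was present in 2 of 29 (Herpud1, and Dnajb11 at 8 bases after the start), against 0.0444% of all these genes. The amino acid response core was found in Herpud1 and Trib3 (4.51% of all genes hold it), and the UPRE core TGACGTGG, a site of XBP1, in 0 of 29 (0.714% of all genes). These are matches of letters, not measured binding, and no match says only that these letters are not in this window. The members were listed for their function in this response, so the shares describe the list and are no result of these libraries.

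Values are CPM, reads or fragments of a gene scaled to the size of its library; they were not divided by gene length, so levels are compared between libraries for 1 gene and not between genes. On the scale of the values, 1 CPM stood for 28.2 to 75.2 reads or fragments in the 14 libraries. The 34 members summed to 2636 to 4067 CPM with vehicle, 3783 to 7173 CPM with PAM3CSK4, 3429 to 5364 CPM in monocytes and 3398 to 8429 CPM in macrophages. Changes are given as log2(CPM + 1) differences with their SE, gene positions are those of the deposited tables (mm10), and a gene was called when its limma p, adjusted by Benjamini-Hochberg over all genes tested, was under 0.05. The sorted populations were checked against marker genes, and some libraries stood apart. PAM3CSK4 replicate 4 held 27.5 CPM of Itgax, which encodes the CD11c of the gate, against 181 to 283 CPM in the other 3, and the summed level of 12 neutrophil genes was 541, 1528, 1322 and 10249.6 CPM in PAM3CSK4 replicates 1 to 4. In the libraries labelled macrophage, 9 of 11 macrophage genes had a positive change against monocytes, and 4 were called higher (Mertk, Vcam1, Spic and Slc40a1). The other 2 were called lower. Cd68 was at 22.3 to 23.8 CPM against 79.8 to 137 CPM in monocytes and Adgre1 at 16.2 to 32.6 against 42.6 to 93.9 CPM. Siglec1, which encodes the CD169 of the macrophage gate, was at 18.9, 18.6 and 25.2 against 34.7, 2.20 and 14.1 CPM. Also called higher were 7 of 7 B cell, 6 of 7 NK and T cell, 8 of 8 erythroid and 5 of 7 plasma cell genes tested. So were 8 of 11 neutrophil, 3 of 5 basophil and mast cell and 3 of 10 dendritic cell genes. Of the 10 dendritic cell genes, 9 had positive changes. Called lower were 7 of 7 monocyte, 4 of 5 granulocyte precursor, 2 of 11 neutrophil and 1 of 10 dendritic cell genes. Of 8 plasmacytoid dendritic cell genes 3 were called higher and 1 lower. Over all genes tested, 12.8% were called higher and 7.42% lower.

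The first comparison asks how dendritic cells of mice given PAM3CSK4 differed from those of mice given vehicle. Of the 32 members tested, 28 had a higher mean with PAM3CSK4 and 4 a lower one, with a median change of 0.56 on the log2 scale (1.47-fold), against a median of 0.20 over all 11377 genes tested, of which 7655 were positive. Only 1 member, Manf, rose past the threshold and 0 fell, where 5.12% of all genes were called in either direction, 2.82% higher and 2.29% lower; the share of members called, at 1 of 32, was thus near or under the background. The split of all genes depended on scaling: 321 higher and 261 lower became 276 and 390 after rescaling to a common total, 208 and 487 after median centring and 237 and 438 after quantile normalisation. At an unadjusted p under 0.05 the members numbered 15 of 32, and all genes 2835 of 11377. Vehicle and PAM3CSK4 libraries did not overlap for 6 members, Manf, Creld2, Pdia4, P4hb and Edem1 being higher and Ern1 lower, against 14.8% of all genes. Derl3 and Trib3 did not reach the 1 CPM that the filter asks for in 4 libraries. When the libraries were rescaled to a common total, centred on their median or quantile normalised, the members' median was 0.41, 0.34 and 0.40 and that of all genes 0.07, −0.02 and 0.02. In each of the 3 the chaperones, lectin chaperones, isomerases, degradation and translocation genes kept all their tested members positive and the sensors all negative, while the stress factors had medians of 0.02, −0.06 and −0.02. In bulk samples such as these, fewer cells of a type and less RNA per cell cannot be told apart.

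Among chaperones and cofactors, all 9 means were higher with PAM3CSK4, with a median change of 0.71. Manf (chromosome 9, 106888753 to 106891939, minus strand), which encodes a small secreted ER protein that binds BiP and is released under stress, stood at 29.9, 43.3, 34.1 and 33.3 CPM in vehicle replicates 1 to 4 and at 48.3, 107, 70.0 and 88.0 CPM in PAM3CSK4 replicates 1 to 4. Every PAM3CSK4 library was thus above every vehicle library, with replicate 1 only just so. The means were 35.1 ± 5.73 and 78.4 ± 25.2 CPM (SD, n = 4 each), a change of 1.09 ± 0.26 (SE; adjusted p = 0.033). This call was lost without any 1 of the 4 vehicle libraries, PAM3CSK4 replicate 2 or 3, or the filter on low values, with adjusted p-values up to 0.093 and changes between 0.87 and 1.30.

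Creld2 (chromosome 15, 88819646 to 88826682, plus strand), which encodes a secreted ER protein with disulfide isomerase activity, was at 13.9, 20.8, 12.3 and 14.8 CPM under vehicle and 20.9, 49.7, 28.3 and 34.1 CPM under PAM3CSK4. The lowest PAM3CSK4 library, replicate 1, lay just above the highest vehicle library, replicate 2. Its change of 1.01 ± 0.28 missed the threshold (adjusted p = 0.056). Hspa5 (chromosome 2, 34772090 to 34776530, plus strand) encodes BiP, the main Hsp70 of the ER, which holds unfolded chains and keeps the sensors inactive. It stood at 179, 317, 265 and 140.4 CPM in vehicle libraries and 259, 860.2, 281 and 411 CPM in PAM3CSK4 libraries, where replicate 2 was far above the rest and replicates 1 and 3 were inside the vehicle range. The change of 0.90 ± 0.38 (95% interval 0.06 to 1.73) had an adjusted p of 0.17. Hsp90b1, which encodes the ER Hsp90 GRP94 that folds Toll-like receptors and integrins, was at 257, 498, 429.5 and 229 CPM and 492, 998, 483 and 491 CPM, so that replicate 2 alone stood above the highest vehicle library. Its change was 0.80 ± 0.33 (adjusted p = 0.16).

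The other 5 chaperone members had changes between 0.47 and 0.71, with adjusted p-values of 0.12 to 0.28. Dnajb11, an ER J-protein that hands clients to BiP, was at 60.2 ± 9.20 CPM under vehicle and 99.5 ± 28.6 CPM under PAM3CSK4 (SD, n = 4 each). Hyou1, which exchanges the nucleotide of BiP, was at 156 ± 39.2 and 254 ± 85.5 CPM. Sdf2l1, a partner of the J-protein complex, was at 43.3 ± 15.1 and 72.0 ± 24.8 CPM. For all 3 the ranges of the groups overlapped. Dnajc3, a J-protein that also restrains eIF2α kinases, was at 85.8 ± 18.0 and 123 ± 28.6 CPM, and Dnajb9, a J-protein that represses IRE1, at 11.7 ± 2.60 and 16.9 ± 4.75 CPM.

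The 2 lectin chaperones and the 4 disulfide isomerases all had positive changes, with medians of 0.64 and 0.66, and 0 of the 6 were called (4 at an unadjusted p under 0.05). Calr and Canx, the soluble and the membrane-bound lectin chaperone of glycoproteins, had changes of 0.72 ± 0.28 and 0.56 ± 0.30 (adjusted p = 0.14 and 0.27). Calr was at 375, 585, 506 and 423 CPM under vehicle and at 508, 1038, 718 and 927 CPM under PAM3CSK4, where only replicate 1 fell inside the vehicle range. Of the 4 isomerases, Pdia4 (chromosome 6, 47796141 to 47813513, minus strand), which acts with BiP on disulfide-rich clients, was at 53.8, 111, 74.3 and 68.8 CPM in vehicle libraries and 112, 231, 134 and 155 CPM in PAM3CSK4 libraries. Replicate 1 with PAM3CSK4 and replicate 2 with vehicle differed by less than 1 CPM, and the others were apart. Its change of 1.02 ± 0.28 had an adjusted p of 0.056. P4hb, the founding disulfide isomerase, was at 181, 260.4, 275 and 249 CPM and 277, 405, 324 and 579 CPM, with replicate 4 highest among the treated libraries and no overlap (0.67 ± 0.27, adjusted p = 0.15). Pdia3, the isomerase that serves the calnexin cycle and the loading of MHC class I, and Pdia6 had changes of 0.64 ± 0.30 and 0.60 ± 0.25 (adjusted p = 0.21 and 0.16).

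In ER-associated degradation, which draws misfolded proteins back to the cytosol for the proteasome, 6 of the 7 members were tested and all 6 changes were positive, with a median of 0.44 and 0 called (2 at an unadjusted p under 0.05). Edem1, a mannosidase-like factor that marks glycoproteins for removal, was at 125, 191, 191 and 164 CPM under vehicle and 196, 290.3, 261 and 242 CPM under PAM3CSK4. The groups did not overlap, by the small margin between vehicle replicate 2 and PAM3CSK4 replicate 1, and the change was 0.56 ± 0.22 (adjusted p = 0.15). Derl2, a membrane channel component, had a change of 0.62 ± 0.27 and its relative Derl1 one of 0.41 ± 0.24. Sel1l and Syvn1, the adaptor and the ubiquitin ligase of the same complex, had changes of 0.47 ± 0.25 and 0.37 ± 0.27. Herpud1, which organises that complex, was almost the same in the 4 vehicle libraries, at 61.1 to 63.2 CPM, and was at 64.4, 91.9, 109 and 62.3 CPM with PAM3CSK4, so that replicates 2 and 3 were well above that range, replicate 1 just above it and replicate 4 inside it. Derl3, the secretory-cell member of the family, lay at 0.182 to 0.806 CPM in vehicle libraries and 0.418 to 0.723 CPM in PAM3CSK4 libraries, under the filter in both.

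The 3 sensors had changes of the opposite sign, and 0 were called by limma or had an unadjusted p under 0.05. Ern1 (chromosome 11, 106397620 to 106487797, minus strand) was at 50.3, 58.8, 50.1 and 66.5 CPM under vehicle and 50.0, 34.4, 45.9 and 35.2 CPM under PAM3CSK4. The highest treated library, replicate 1, lay only just below the lowest vehicle library, and the change was −0.45 ± 0.21 (adjusted p = 0.21). Eif2ak3 had a change of −0.19 ± 0.25 and Atf6 one of −0.14 ± 0.30. For Atf6 this rested on PAM3CSK4 replicate 4, at 80.0 CPM, since the other 3 held 184 to 201 CPM against 149 to 220.3 CPM with vehicle.

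For transcription factors and regulators downstream of the sensors the median change was 0.16, which turned negative with median centring and quantile normalisation, and 0 of 4 were called (0 also at an unadjusted p under 0.05). Xbp1 (chromosome 11, 5520641 to 5525994, plus strand) was at 48.0, 55.1, 52.4 and 51.9 CPM in vehicle libraries and 41.4, 66.7, 57.8 and 70.1 CPM in PAM3CSK4 libraries, a change of 0.16 ± 0.21 with a 95% interval of −0.31 to 0.62. The treated libraries lay on both sides of the narrow vehicle range. Atf4, Ddit3 (the pro-apoptotic factor CHOP) and Ppp1r15a (GADD34, which directs a phosphatase to eIF2α) had changes of 0.18 ± 0.22, 0.16 ± 0.29 and −0.08 ± 0.32, all with adjusted p-values of 0.64 or more. The widest 95% interval among them, that of Ppp1r15a, ran from −0.78 to 0.62. Trib3, a pseudokinase and target of ATF4 and CHOP, was too low to test, at 0.0001, 0.0001, 0.204 and 0.0837 CPM under vehicle and 0.300, 0.390, 0.727 and 1.70 CPM under PAM3CSK4, where 0.0001 is the lowest value that the table holds. All 4 treated libraries were above the 4 vehicle libraries, at levels under 2 CPM.

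The translocation members had 4 positive changes of 4, with a median of 0.44 and 0 called (2 at an unadjusted p under 0.05). Sec61a1 and Sec61b encode the pore and a small subunit of the channel that passes new chains into the ER, with changes of 0.57 ± 0.26 and 0.31 ± 0.26. Ssr1, of the complex beside that channel, had a change of 0.75 ± 0.28 (adjusted p = 0.13), and Spcs1, of the signal peptidase complex, one of 0.32 ± 0.22.

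**Figure D1:**
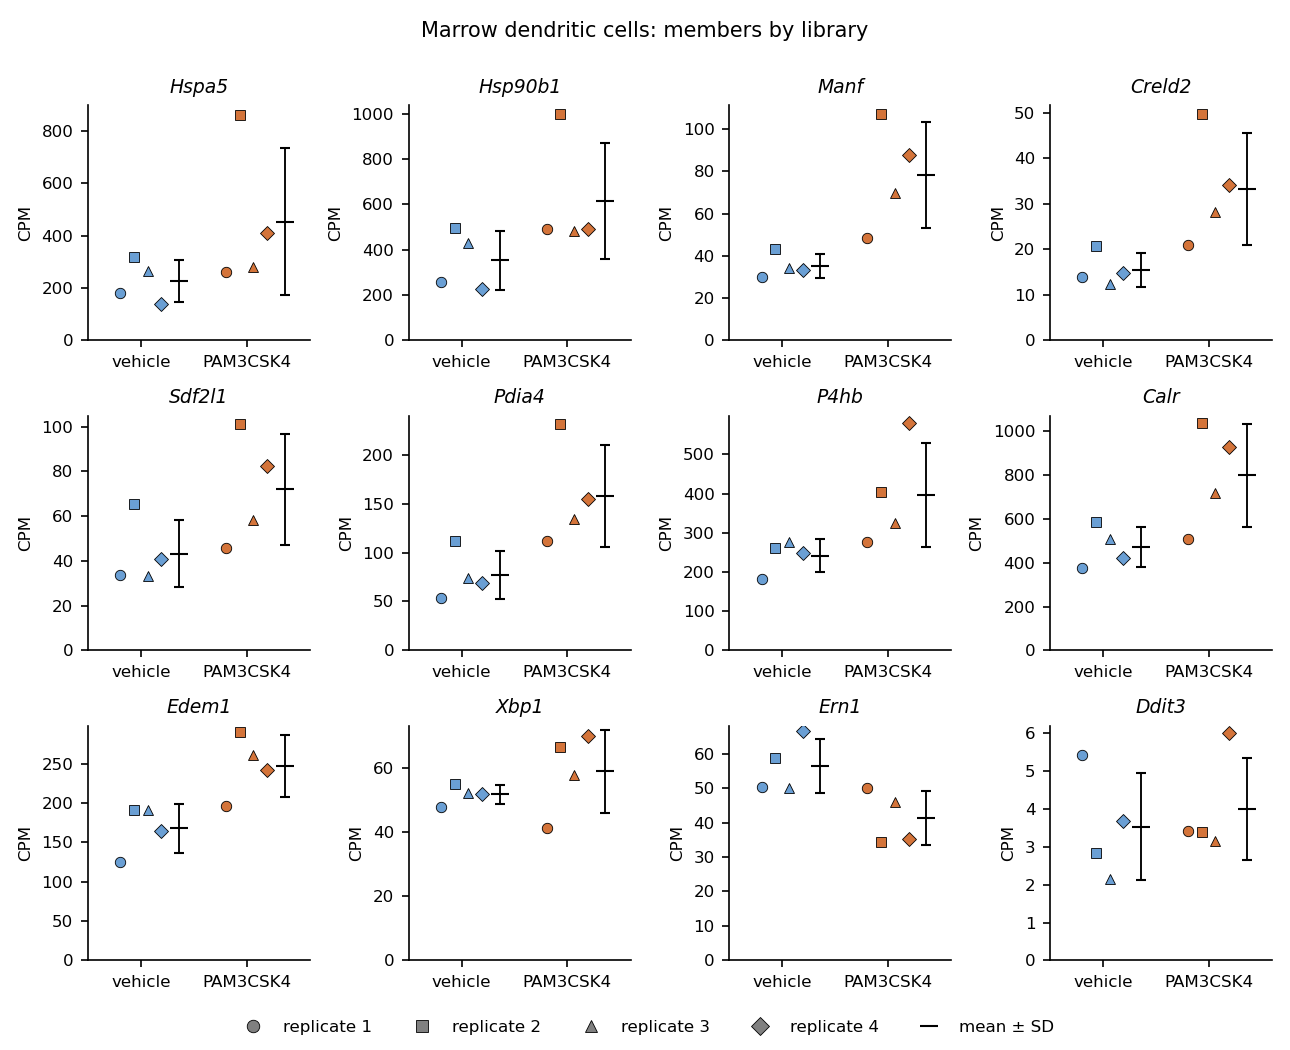
CPM of 12 members in each dendritic cell library (points, one per replicate; linear axis from 0, in CPM) with the mean and SD of the 4 vehicle and 4 PAM3CSK4 libraries. Manf runs from 29.9 to 43.3 CPM with vehicle and from 48.3 to 107 CPM with PAM3CSK4, while for Hspa5 and Hsp90b1 PAM3CSK4 replicate 2 stands alone at 860.2 and 998 CPM.

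The treated libraries did not move together, and the members ranked them alike. PAM3CSK4 replicate 1 was the lowest of its group in 28 of the 34 members, where it was lowest in 36.8% of all genes tested, and replicate 2 was the highest in 19, where it was highest in 27.3% of all genes tested. The median over the tested members of the log2 difference from the vehicle mean was 0.12, 0.85, 0.47 and 0.69 in PAM3CSK4 replicates 1 to 4, and −0.31, 0.20, 0.07 and −0.02 in vehicle replicates 1 to 4. PAM3CSK4 replicate 1 thus lay below vehicle replicate 2. Over all genes tested the same medians were 0.06, 0.22, 0.27 and 0.22 with PAM3CSK4 and −0.26, 0.08, 0.11 and 0.07 with vehicle. Vehicle replicate 1 was the lowest of its group in 23 of the 34 members and in 57.5% of all genes tested. Without it the members' median change was 0.40, against 0.12 over all genes. Without PAM3CSK4 replicate 1, 4 members were called higher: Manf, Creld2, Pdia4 and Dnajb11. Without replicate 4, the library low in Itgax and high in neutrophil genes, Manf was still called (1.01, adjusted p = 0.040). Other marker lists also moved with the treatment, with 2 of 11 neutrophil, 4 of 9 plasmacytoid dendritic cell and 3 of 7 erythroid genes called higher. Called lower were 2 of 10 dendritic cell and 2 of 7 monocyte genes. Of 11 macrophage genes, 1 was called higher (Spic) and 1 lower (Cd163). Over all genes tested, 2.82% were called higher and 2.29% lower. All 11 neutrophil, 9 plasmacytoid dendritic cell and 7 erythroid changes were positive. Negative were 5 of 7 monocyte and 8 of 11 macrophage changes. The summed level of the 10 genes of the dendritic cell list was 10605 to 13508 CPM in vehicle libraries and 5244, 4890.5, 5949 and 793 CPM in PAM3CSK4 libraries, and that of the plasmacytoid dendritic cell list, which marks a cell type rich in ER, was 80.9 to 154 CPM and 529.9, 199, 637 and 98.8 CPM. The sum of the dendritic cell list mostly follows Cd74, H2-Aa and H2-Ab1. All 10 of its changes were negative, but Itgax was at 170 to 271 CPM with vehicle and 277, 181, 283 and 27.5 CPM with PAM3CSK4. Flt3 was at 194 to 393 and 282, 130, 198 and 35.8 CPM, and Zbtb46 at 23.3 to 32.5 and 18.3, 8.33, 8.46 and 2.83 CPM. The plasma cell list was at 240 to 366 CPM under vehicle and 154, 140.1, 176 and 61.2 CPM under PAM3CSK4. Within it, Irf4, Prdm1 and Slamf7 are genes that dendritic cells also express, Jchain was at 0.0001, 8.68, 8.05 and 0.635 CPM in vehicle and 1.03, 12.3, 0.0331 and 20.8 CPM in PAM3CSK4 replicates 1 to 4, Sdc1 at 2.47 to 7.26 and 7.92, 7.30, 23.3 and 6.31 CPM, Pou2af1 at 0.0001 to 0.351 and 0.300, 0.425, 0.429 and 4.36 CPM, and Tnfrsf17 at 0.16 CPM or less in all 8 libraries. The macrophage list summed to 637 to 1070.5 CPM with vehicle and 422, 2047, 938 and 359 CPM with PAM3CSK4, so that it was highest in replicate 2, the library highest for most members, where Adgre1 stood at 709 CPM and Spic at 143 CPM. The part of these other cell types in the members' levels was not tested.

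Genes that work beside the 34 members were taken from lists set for this account. Their counts in dendritic cells stand beside 2.82% of all genes called higher and 2.29% called lower. At an unadjusted p under 0.05 there were 2835 of all 11377 genes. In dendritic cells none of 23 other degradation genes, 21 other folding enzymes, 19 other translocation genes, 18 N-glycosylation genes or 10 mitochondrial chaperones and proteases tested was called by limma (5, 5, 6, 11 and 6 at an unadjusted p under 0.05). Their median changes were 0.31, 0.28, 0.47, 0.58 and 0.64, and all 18 N-glycosylation genes and all 19 translocation genes had positive changes in the values as deposited; these lists were not recomputed after rescaling. ER export held 1 rise among 19 tested, Sec24d, a cargo-selecting coat protein of vesicles that leave the ER, at 12.4, 17.9, 20.4 and 17.4 CPM in vehicle libraries and 58.5, 67.2, 66.9 and 36.3 CPM in PAM3CSK4 libraries (1.67 ± 0.25, adjusted p = 0.0044). Every treated library exceeded every vehicle library. Of 20 integrated stress response targets tested, 3 rose and 0 fell: Phgdh, of serine synthesis, rose by 2.49 ± 0.47 (adjusted p = 0.013), Aars, an alanyl-tRNA synthetase, by 1.10 ± 0.23 (adjusted p = 0.022) and Mthfd2, of mitochondrial folate metabolism, by 0.86 ± 0.20 (adjusted p = 0.033). Among 16 cytosolic chaperones, Stip1, which links Hsp70 to Hsp90, rose by 0.97 ± 0.25 (adjusted p = 0.045), and 0 of 17 other sensors and regulators were called, with 2 at an unadjusted p under 0.05.

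**Figure D2:**
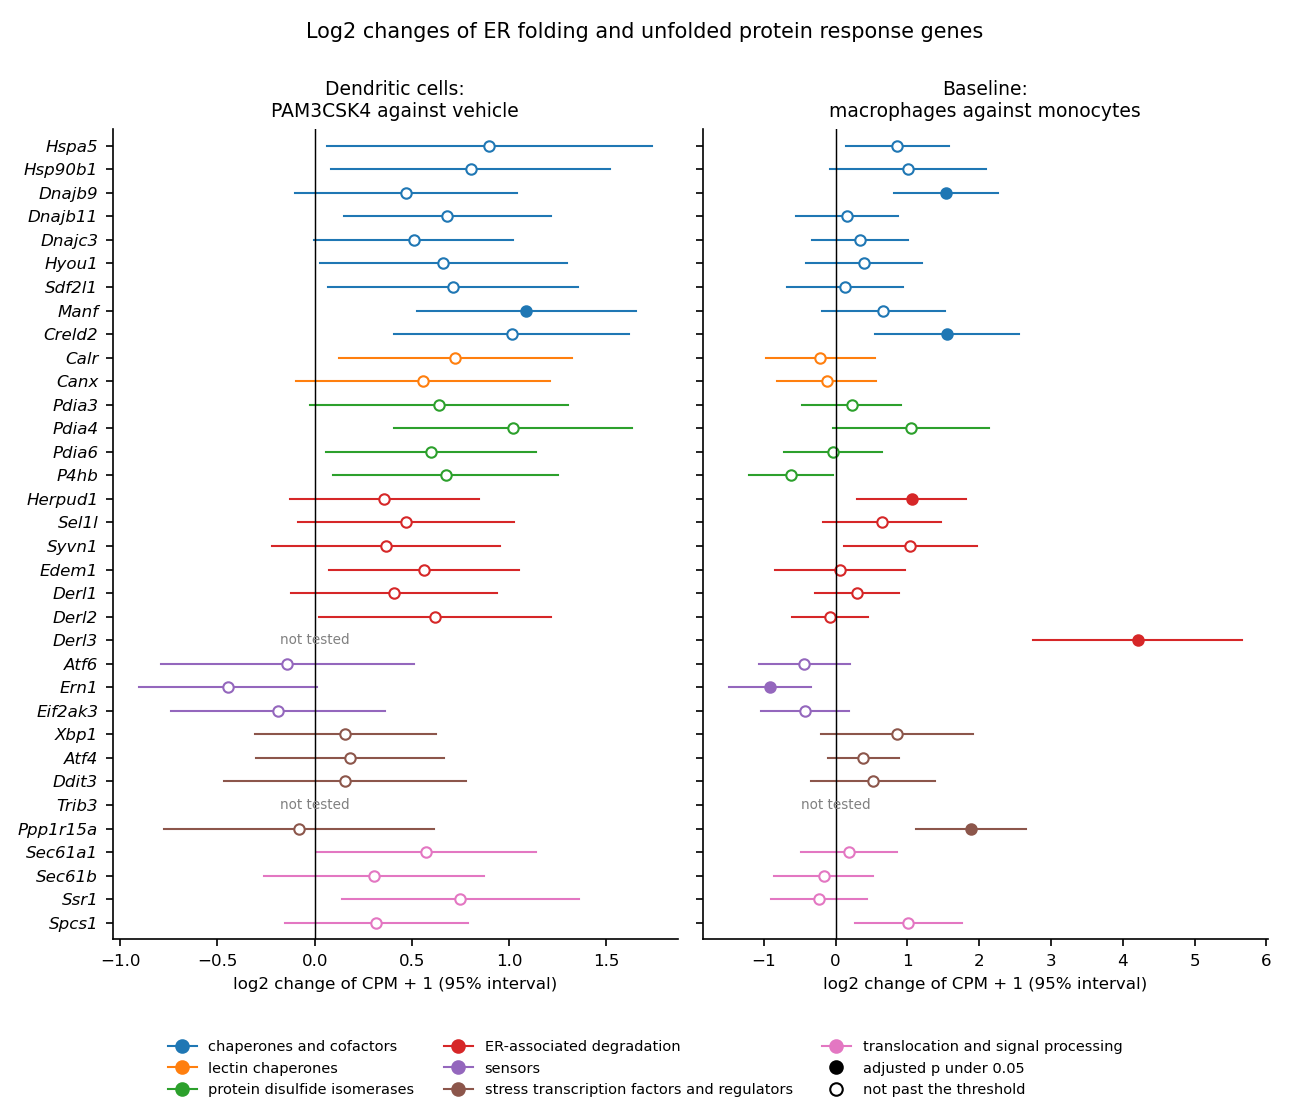
Log2(CPM + 1) change with its 95% interval for each tested member, grouped by role, with PAM3CSK4 against vehicle in dendritic cells on one side and macrophage against monocyte libraries on the other; filled points passed an adjusted p of 0.05, the vertical line marks 0 and members under the filter are marked as not tested. In dendritic cells most members lie to the right of 0 with Manf alone filled, and between macrophages and monocytes Derl3, at 4.21, is the farthest point.

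The second comparison set the libraries labelled macrophage against monocytes. Of 33 members tested, 5 were higher in macrophages (Dnajb9, Creld2, Herpud1, Derl3 and Ppp1r15a) and 1 was lower (Ern1), where 20.2% of all 12188 genes were called, 12.8% higher and 7.42% lower; the share of members called, at 6 of 33, was near that background. The members' median change was 0.34 (1.26-fold) with 23 positive and 10 negative, against 0.10 over all genes, of which 6996 were positive. Groups did not overlap for 8 members: Dnajb9, Herpud1, Derl3, Atf4, Ppp1r15a and Spcs1 were higher and P4hb and Ern1 lower, against 34.2% of all genes. Chaperones (median 0.66), degradation genes (0.65) and stress factors (0.69) lay above 0, translocation genes (0.01) and isomerases (0.10) near it, and lectin chaperones (−0.17) and sensors (−0.44) below it. After rescaling to a common total, median centring or quantile normalisation the chaperones, degradation genes and stress factors stayed above 0 and the sensors below it, whereas the lectin chaperones moved to 0.01, −0.29 and 0.16, the isomerases to 0.27, −0.03 and 0.37 and the translocation genes to 0.18, −0.11 and 0.27. The same scalings put the median of all genes at 0.26, −0.02 and −0.03 and turned the 1564 higher and 904 lower calls of all genes into 2068 and 768, 1370 and 1303, and 1004 and 1238.

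Derl3 (chromosome 10, 75893398 to 75895942, plus strand) had the largest change among the members, 4.21 ± 0.67 (adjusted p = 0.00085). It stood at 0.0708, 0.0001 and 0.431 CPM in monocytes, where 0.0001 is again the lowest value listed, and at 20.3, 5.14 and 72.9 CPM in macrophage replicates 1 to 3. The monocyte libraries held under 1 CPM, and the macrophage libraries differed widely from each other. Derl3 thus passed the filter only through the macrophage libraries, and its lack of overlap was fixed by that filter. Dnajb9 (chromosome 12, 44205897 to 44210069, minus strand) was at 10.4, 15.3 and 9.31 CPM in monocytes and 28.4, 26.7 and 56.6 CPM in macrophages (1.54 ± 0.33, adjusted p = 0.0057), with replicates 1 and 2 almost equal and both above every monocyte library. Ppp1r15a (chromosome 7, 45522917 to 45526269, minus strand) was at 18.2, 6.03 and 12.1 CPM and 34.5, 50.4 and 47.7 CPM (1.88 ± 0.35, adjusted p = 0.0026). All 3 macrophage libraries were above every monocyte library, and replicate 2, the lowest for most members, was the highest. These 3 genes were called in all 14 alternatives run, including those without macrophage replicate 3.

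Creld2 was at 23.9, 10.7 and 10.4 CPM in monocytes and 47.0, 19.9 and 82.1 CPM in macrophages, a rise of 1.55 ± 0.46 (adjusted p = 0.032), although replicate 2 fell inside the monocyte range. Herpud1 (chromosome 8, 94386429 to 94395372, plus strand) was at 50.2, 31.6 and 41.8 CPM and 77.5, 53.9 and 149 CPM, a rise of 1.06 ± 0.35 (adjusted p = 0.0496). Here replicate 2 was just above the highest monocyte library. Ern1 was at 128, 74.0 and 106 CPM in monocytes and 62.8, 47.9 and 48.5 CPM in macrophages, so the 3 macrophage libraries were all lower (−0.92 ± 0.26, adjusted p = 0.028). Without macrophage replicate 3 the calls of Creld2, Herpud1 and Ern1 were all lost and 3 members remained called; Creld2 and Herpud1 were also lost without macrophage replicate 1 or monocyte replicate 2 or 3, and Ern1 without macrophage replicate 2 or monocyte replicate 1 or 3.

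Several members missed the threshold with wide spread in the macrophage group. Xbp1 was at 105, 114 and 101 CPM in monocytes and 196, 77.8 and 475 CPM in macrophages (0.85 ± 0.49, adjusted p = 0.27), with replicate 2 below every monocyte library and replicate 3 more than 4 times above them. Pdia4 was at 132, 133 and 81.7 CPM and 228, 98.2 and 579 CPM (1.05 ± 0.50, adjusted p = 0.17). Hsp90b1 was at 394, 713 and 259.9 CPM and 789, 419.5 and 1817 CPM (1.01 ± 0.50, adjusted p = 0.19). In both, replicate 3 was far above the rest and replicate 2 was within the monocyte range. Hspa5, at 361, 318 and 192 CPM and 549.6, 350.0 and 691 CPM, had a change of 0.86 ± 0.33 (adjusted p = 0.092). Syvn1 had a change of 1.04 ± 0.42, Spcs1 of 1.01 ± 0.34, Manf of 0.66 ± 0.39 and Sel1l of 0.65 ± 0.37, with adjusted p-values of 0.11, 0.055, 0.29 and 0.28.

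The other chaperone members, Dnajb11, Dnajc3, Hyou1 and Sdf2l1, had changes of 0.15 ± 0.33, 0.34 ± 0.31, 0.39 ± 0.37 and 0.14 ± 0.37. P4hb was at 445, 427 and 372 CPM in monocytes and 305, 200.2 and 318 CPM in macrophages, lower in all 3 but not called (−0.62 ± 0.27, adjusted p = 0.13). Calr, Canx, Pdia3 and Pdia6 had changes of −0.22 ± 0.35, −0.12 ± 0.32, 0.22 ± 0.32 and −0.03 ± 0.31, each with an interval that spans 0. The same held for Edem1, Derl1 and Derl2 (0.06 ± 0.42, 0.30 ± 0.27 and −0.08 ± 0.24) and for Sec61a1, Sec61b and Ssr1 (0.19 ± 0.31, −0.17 ± 0.32 and −0.23 ± 0.31). Eif2ak3 and Atf6 had changes of −0.43 ± 0.28 and −0.44 ± 0.29, the same sign as Ern1. Atf4 was at 82.7, 72.9 and 87.5 CPM and 107, 93.0 and 120.2 CPM, higher in all 3 macrophage libraries but not called (0.39 ± 0.23, adjusted p = 0.29), and Ddit3 had a change of 0.52 ± 0.40. Trib3, below the filter, was at 0.0355, 0.0001 and 0.244 CPM in monocytes and 3.89, 0.851 and 2.01 CPM in macrophages, with no overlap.

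**Figure D3:**
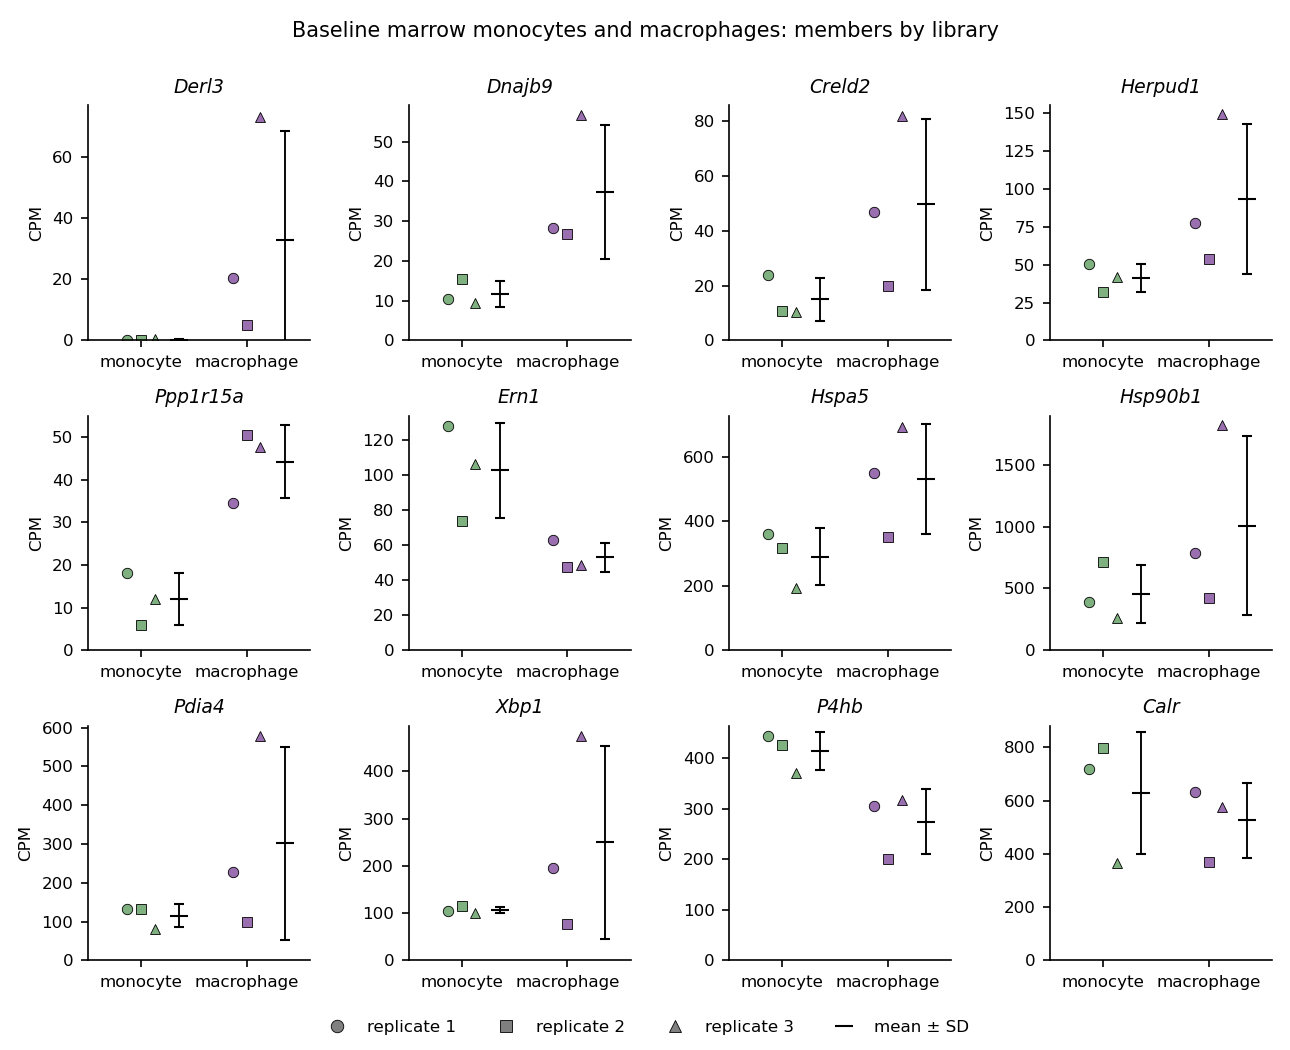
CPM of 12 members in each monocyte and macrophage library (points, one per replicate; linear axis from 0, in CPM) with the mean and SD of 3 libraries each; the SD bar of Derl3 in macrophages is drawn down to 0 only. Macrophage replicate 3 is the highest and replicate 2 the lowest point for most genes, as for Derl3 at 72.9 and 5.14 CPM, whereas for Ppp1r15a all 3 macrophage libraries lie above 34 CPM and the monocytes below 19 CPM.

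Most members ranked the macrophage libraries alike. Replicate 3 was above replicate 1 and replicate 1 above replicate 2 in 28 of the 34 members (82.4%), against 21.9% of the 12188 genes tested. Replicate 3 was above all monocytes for 27 members, replicate 1 for 20 and replicate 2 for 7 (Atf4, Derl3, Dnajb9, Herpud1, Ppp1r15a, Spcs1 and Trib3), and replicate 2 was below all monocytes for 15. Of all genes tested, 32.8%, 44.6% and 26.9% were above all monocytes in replicates 3, 1 and 2, against 79.4%, 58.8% and 20.6% of the members, and 35.0% were below them in replicate 2, against 44.1% of the members. The median log2 difference of the members tested from the monocyte mean was 0.40, −0.30 and 0.86 in replicates 1, 2 and 3. Over all genes tested it was 0.27, −0.07 and 0.09. Replicate 2 was the lowest of its group in 33 of the 34 members, where it was lowest in 60.1% of all genes tested. Several marker lists ran in the order of most members, replicate 3 above replicate 1 and replicate 1 above replicate 2. For plasma cells the summed level of the 9 with a value was 2313, 566 and 7962 CPM in macrophage replicates 1 to 3. It was 161, 74.3 and 30.4 CPM in monocyte replicates 1 to 3. All 7 of the plasma cell genes tested had positive changes, and 5 were called higher in macrophages. Jchain, which encodes the joining chain of secreted antibody, was at 2029, 397 and 6891 CPM against 8.26, 3.87 and 0.0564 CPM, and Mzb1, an ER cofactor of antibody secretion, at 52.2, 14.0 and 249.6 against 0.230, 0.0001 and 0.0564 CPM. Tnfrsf17, the BCMA of plasma cells, was at 5.59, 0.998 and 25.4 against 0.106, 0.0001 and 0.0189 CPM. In macrophage replicates 1 to 3 the summed level was 210.1, 194 and 725 CPM for the erythroid list, 215, 150.01 and 382 CPM for plasmacytoid dendritic cells, 519, 328 and 807 CPM for monocytes and 364, 269 and 409.5 CPM for macrophages, each in the same order. The B cell list, at 85.1, 91.1 and 736 CPM, was also highest in replicate 3. Other lists went another way. The neutrophil, granulocyte precursor, NK and T cell, and basophil and mast cell lists were highest in replicate 1. The dendritic cell list was highest in replicate 2. The part of RNA of these cell types in the members' levels was not tested. Without macrophage replicate 3 the members' median was 0.14, with 19 positive and 14 negative, against 0.10 over all genes, and Derl3, Dnajb9 and Ppp1r15a were called, at 3.31, 1.20 and 1.82 on the log2 scale; without replicate 2 the median was 0.61, against 0.19 over all genes, and 11 members were called, Xbp1 among them (1.51, adjusted p = 0.026).

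**Figure D4:**
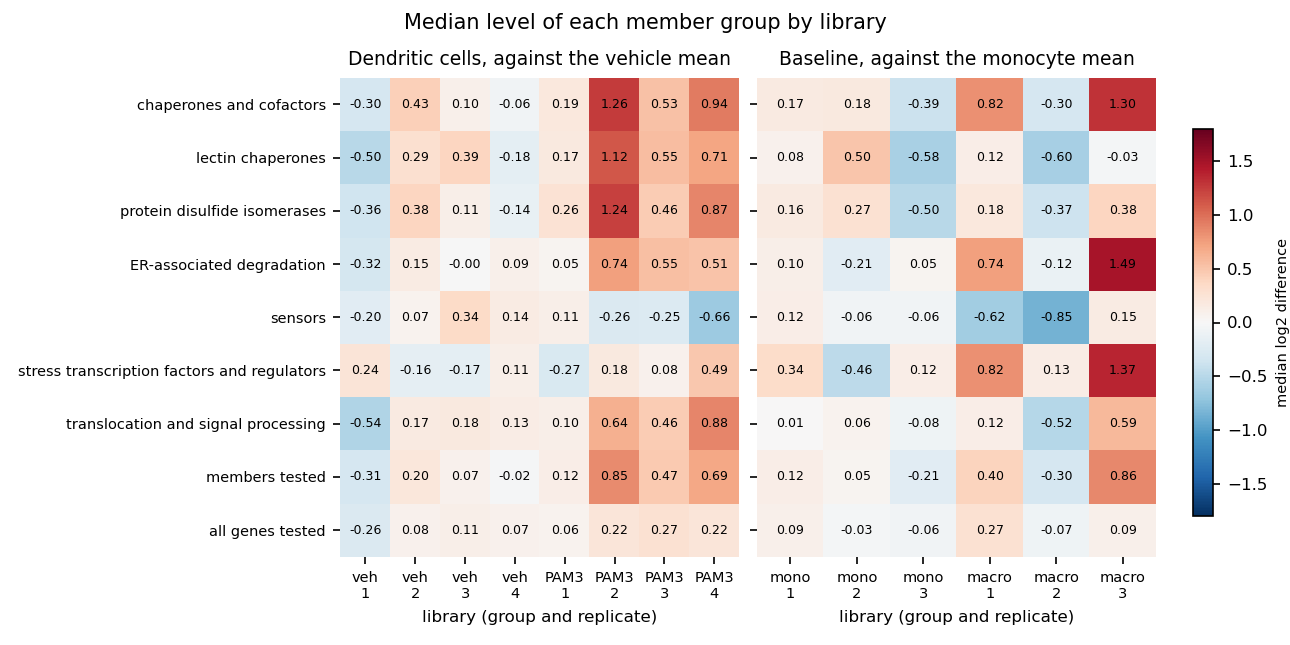
Median log2(CPM + 1) difference of each role group from the vehicle mean (dendritic cell libraries) or from the monocyte mean (monocyte and macrophage libraries), one column per library and one row per role group, with the value printed in each cell. Macrophage replicate 3 and PAM3CSK4 replicate 2 stand out as the highest columns for the members as a whole, at 0.86 and 0.85, and macrophage replicate 2 is at −0.30.

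Among the neighbouring lists, 2 other folding enzymes were higher in macrophages and 1 was lower, of 23 tested: Rcn1, a calcium-binding protein of the ER (1.32 ± 0.31, adjusted p = 0.0097), Fkbp11, a prolyl isomerase abundant in secretory cells (1.75 ± 0.50, adjusted p = 0.025), and, lower, Erp29 (−1.06 ± 0.28, adjusted p = 0.016). Of 21 integrated stress response targets tested, 4 were called higher and 1 lower, where 12.8% of all genes tested were called higher and 7.42% lower. They were Vldlr, a lipoprotein receptor (4.25 ± 0.47, adjusted p = 8.6e-05), Ddit4, an inhibitor of mTORC1 (1.50 ± 0.32, adjusted p = 0.0056), Asns, asparagine synthetase (1.95 ± 0.45, adjusted p = 0.0091), and Slc3a2, a subunit of amino acid transporters (1.35 ± 0.32, adjusted p = 0.010), all higher, and Nupr1, a stress-induced nuclear protein, lower (−2.31 ± 0.37, adjusted p = 0.00091); Asns and Slc3a2 are named because their count was small, after their values were seen. Srp54a, of the signal recognition particle, was the 1 of 19 translocation genes called (1.01 ± 0.25, adjusted p = 0.013), and Gfpt1, which starts synthesis of the sugar donor UDP-GlcNAc, the 1 of 18 N-glycosylation genes (0.87 ± 0.26, adjusted p = 0.032). None of the 23 other degradation genes, 20 export genes, 16 other sensors, 16 cytosolic chaperones or 10 mitochondrial genes was called by limma, with 2, 1, 3, 2 and 0 at an unadjusted p under 0.05. The medians of the 9 lists lay between 0.02 and 0.28. With 20.2% of all genes called in this comparison, the share called in each list was near that background or under it.

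Split by their promoters, the 11 members with an ERSE or ERSE-II and the 18 with a window and neither were described side by side. In dendritic cells 10 of the 11 were tested, all 10 changes were positive with a median of 0.64 and 0 were called, against a median of 0.47 for 17 tested members with neither, of which 14 were positive. Between macrophages and monocytes the 11 had a median of 0.86, with 8 positive and 3 called higher (Creld2, Derl3 and Herpud1, whose elements are shown above), against a median of 0.22 for 17 with neither, of which 11 were positive, 2 called higher (Dnajb9 and Ppp1r15a) and 1 lower (Ern1). Both counts stand beside 20.2% of all genes called there, and Derl3 passed the filter only through the macrophage libraries. Without macrophage replicate 3 the calls of Creld2, Herpud1 and Ern1 were lost. Manf, called in dendritic cells, has no window in the table and is in neither set. A further 38 genes outside the list carry either motif: 12 were tested in dendritic cells, with a median of 0.15 and 0 called, and 14 between macrophages and monocytes, with a median of 0.53 and 2 called higher, Lgalsl and Ptgdr2, which are named after their values were seen. The split also runs along the roles of the members. The 11 are chaperones, lectin chaperones, isomerases or degradation genes, and no sensor, stress factor or translocation gene is among them. The difference between these sets was not tested, nor was the part of role in it.

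Set side by side across the 2 tables, which the authors made separately, some members had unlike levels in dendritic cells and monocytes; no test links the tables, and the genes given were picked after their values were seen. Ern1 was at 56.4 ± 7.85 CPM in dendritic cells (SD, n = 4), 103 ± 27.1 CPM in monocytes and 53.1 ± 8.45 CPM in macrophages (SD, n = 3 each). Xbp1 was at 51.9 ± 2.92, 107 ± 6.92 and 249 ± 204 CPM in the same order. Dendritic cells and macrophages overlapped for Ern1, and for Xbp1 the vehicle libraries lay below all others. Canx was at 133 ± 52.3, 409.6 ± 158 and 365 ± 83.0 CPM, Ppp1r15a at 35.2 ± 13.8, 12.1 ± 6.07 and 44.2 ± 8.48 CPM, and Derl3 at 0.430 ± 0.266, 0.167 ± 0.231 and 32.8 ± 35.6 CPM. Derl3 was under 1 CPM in every dendritic cell and monocyte library, with vehicle or PAM3CSK4, and above 5 CPM in every macrophage library.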

How the data were processed

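Libraries were made, per the labels' protocols, from column-purified total RNA after depletion of ribosomal RNA. The submitters' processing notes name mm10, STAR 2.5.3a and Partek, without saying what each tool did, and the sources used here give neither the annotation nor the strand setting. The authors deposited 1 table for dendritic cells and 1 for monocytes and macrophages under the name FPKM, with 0.0001 as the lowest value. The authors' values, as deposited, were taken as CPM, counts scaled to the library and not divided by gene length: 65.4% to 68.2% of the low values (up to 50 steps) of the dendritic cell libraries and 87.5% to 90.3% of those of the others lay within 0.05 steps of whole multiples of 1 step per library, whatever the gene, against at most 11.3% with a step 7% longer. The design had assumed FPKM; the test is the same. A library's listed genes summed to 350368 to 578711 CPM. The lowest sum was that of vehicle replicate 1, against 464918 to 482656 CPM in the other vehicle libraries. How reads were split between overlapping genes is not stated, so reads of the 8 members that overlap another listed gene (Ddit3, Derl2, Dnajb11, Pdia4, Pdia6, Ppp1r15a, Spcs1 and Syvn1) cannot be told from their partners' in the overlap. In the second table, 3 columns that match no single sample by name were not used, so dendritic cells were not tested against the other cells.

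Tests were two-sided, with limma 3.58.1 in R 4.3.3 (lmFit, eBayes with trend) on log2(CPM + 1), within each table, for genes at 1 CPM or more in at least 4 (dendritic cells) or 3 libraries, with p-values adjusted across every tested gene (Benjamini-Hochberg) and called under 0.05. Log2 changes on this scale understate those of low genes. The code was tested on simulated data. Groups and replicate numbers come from the labels, which do not say that libraries of a group are separate mice; the p-values reflect variation among libraries only, which may be technical. The alternatives were other pseudocounts, no filter, 3 scalings, no trend, the replicate number as a block and each library left out. The members, the neighbouring gene lists and the markers were chosen with earlier results of these data known. All members are named, with up to 3 genes of each neighbouring list by smallest p and the markers' defining genes. RefSeq promoters (GRCm38.p6) were matched by symbol for 29 of 34 members; Sec61a1, Derl1, Hyou1, Atf6 and Manf had no entry.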

Additional observations from a re-analysis of the deposited data

Results flagged for a closer look

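In 6 of 68 groups of 4 dendritic cell libraries, 1 member's extreme library stood far enough from the others to pass Dixon's 95% value, which chance passes in about 1 in 20 groups. Hsp90b1 and Pdia3 were so high in PAM3CSK4 replicate 2, at 998 and 576 CPM with the next libraries at 492 and 304 CPM. In PAM3CSK4 replicate 4, Ddit3 was high at 6.01 CPM (next 3.42), Derl3 high at 0.723 CPM (next 0.451) and Atf6 low at 80.0 CPM (next 184); this is also the library with low Itgax and high neutrophil genes. Sec61b was low in vehicle replicate 1, at 18.5 CPM with the next at 30.6 CPM. Groups of 3 were not tested in this way.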

How the results depend on the processing

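For PAM3CSK4 against vehicle, 582 genes and 1 member were called. Without the filter on low values these were 166 and 0, with the replicate block 976 and 3 (Manf, Creld2 and Pdia4), and with 1 library left out 184 to 1008 and 0 to 4; after rescaling to a common total 2 members were called. For all genes, rises and falls were 321 and 261, but 276 and 390 after rescaling, 208 and 487 after median centring and 237 and 438 after quantile normalisation. The members' median stayed positive, at 0.39 to 0.67 with 1 library left out. For macrophages against monocytes, 2468 genes and 6 members were called; with 1 library left out these were 1699 to 3364 and 3 to 11, and with the replicate block 2609 and 7. Rises and falls were 1564 and 904, but 2068 and 768 after rescaling, 1370 and 1303 after median centring and 1004 and 1238 after quantile normalisation. The cause of these shifts was not tested. Herpud1 kept its call in 5 of 14 alternatives (adjusted p up to 0.21), Creld2 in 7 (up to 0.15) and Ern1 in 9 (up to 0.11).

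The labels do not say that libraries of the same number share an animal or batch, so the numbers were not taken as pairs. Same-numbered libraries deviated with r = 0.033, 0.290, −0.115 and 0.300 for dendritic cells and 0.183, 0.084 and 0.115 for the others. In the second table, but not in the first, each library correlated best with its own number (unlike numbers had r of −0.118 to 0.019). Whether its libraries are paired was not tested, and its fit with the replicate block called 7 members in place of 6. At 28.2 reads or fragments per CPM in the shallowest library, Derl3 and Trib3 in dendritic cells and monocytes rest on few reads.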
